A study of Mus musculus with 36 samples.

Results

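The proteasome subunits described here are the 39 genes of the deposited expression table whose symbols begin with Psma, Psmb, Psmc or Psmd followed by a number, of 24319 symbols in all. They encode the core particle, its immune and tissue-specific variants, the regulatory particle and 3 chaperones of its assembly. Levels come from RNA sequencing of polyadenylated RNA of gastrocnemius, a calf muscle, taken from mice at zeitgeber time (ZT, hours after lights on) 0, 4, 8, 12, 16 and 20. The animals were Bmal1hep-/- mice, which lack the circadian clock gene Bmal1 in the liver, and wild-type (WT) mice. Each genotype and time had 3 libraries labelled as biological replicates, which gives 12 groups, 18 libraries per genotype and 36 libraries. Neither the promoter that drove the deletion nor the strain, age or sex of the mice is given in the labels. The comparisons asked whether proteasome gene expression in muscle differed with the liver clock, with the time of day, or with both.

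The proteasome is the large protease that degrades proteins tagged with ubiquitin. Its barrel-shaped core is made of outer rings of Psma products, which gate entry, and inner rings of Psmb products, some of which cut proteins. A regulatory particle caps the barrel: ATPases encoded by the Psmc genes unfold the substrate, and Psmd products bind ubiquitin, remove it and hold the cap together. In skeletal muscle this system carries out much of the breakdown of contractile proteins during wasting, after tagging by muscle ubiquitin ligases. Interferon induces the catalytic subunits Psmb8, Psmb9 and Psmb10, which replace their constitutive counterparts in the immunoproteasome of immune cells and of inflamed tissue.

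Upstream sequences were read for 32 of the 39 genes from RefSeq (assembly GRCm38.p6), as the 250 bases before each gene's start. Bmal1 protein binds E-boxes, so the letters CACGTG were searched on both strands, which are the same for this palindrome. They occurred upstream of Psma4, Psmb10 and Psmd9, 3 of 32 genes or 9.38%, against 6.86% of 27025 genes with an upstream sequence of that length. The 3 sites are shown because they are the members' matches to the motif of the deleted clock factor, each written 5′ to 3′ on the gene's strand with the E-box in capitals. They lie at chr9:54950707-54950736 (plus strand), chr8:105938491-105938520 (minus strand) and chr5:123228127-123228156 (plus strand).
Psma4: ttctgcacagtcCACGTGggcagactgagc
Psmb10: gttcccaacgccCACGTGgtggcacgccca
Psmd9: tcatctgaaaacCACGTGgtctatctagcc

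The transcription factor Nfe2l1, which induces proteasome genes when proteasome activity falls short, binds antioxidant response elements. Their core, TGACNNNGC with N for any base, was present on either strand upstream of 5 of 32 members (15.6%), against 11.5% of the 27025 genes. The 5 matches are shown with up to 10 bases on either side, cut where the upstream sequence began or ended, and with the core in capitals. They lie at chr14:54618024-54618052 (minus strand), chr11:70525338-70525356, chr14:45329587-45329615, chr11:107479278-107479299 and chr5:123228149-123228177 (plus strand).
Psmb5: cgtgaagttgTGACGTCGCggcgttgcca
Psmb6: ctaaagagagTGACGGAGC
Psmc6: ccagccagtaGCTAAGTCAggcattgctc
Psmd12: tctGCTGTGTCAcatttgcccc
Psmd9: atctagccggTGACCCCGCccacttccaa
In Psmc6 and Psmd12 the core was read on the strand opposite to the gene. The Psmb6 match lies upstream of the start used here, but within the gene by another annotated start, at 70525324.

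Psmb5 and Psmb8 encode the constitutive and the immune form of the same catalytic position. Their 250 upstream bases are shown because the levels of the pair are compared below. The Psmb5 stretch is chr14:54617996-54618245 on the minus strand, with the antioxidant response core in capitals. The Psmb8 stretch is chr17:34197945-34198194 on the plus strand, with the gamma-activated site TTCNNNGAA, in capitals.
Psmb5: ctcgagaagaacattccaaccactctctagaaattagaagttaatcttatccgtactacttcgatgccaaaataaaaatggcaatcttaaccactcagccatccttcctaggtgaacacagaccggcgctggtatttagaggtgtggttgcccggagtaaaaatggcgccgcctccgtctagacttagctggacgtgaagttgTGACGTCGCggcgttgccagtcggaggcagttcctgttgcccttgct
Psmb8: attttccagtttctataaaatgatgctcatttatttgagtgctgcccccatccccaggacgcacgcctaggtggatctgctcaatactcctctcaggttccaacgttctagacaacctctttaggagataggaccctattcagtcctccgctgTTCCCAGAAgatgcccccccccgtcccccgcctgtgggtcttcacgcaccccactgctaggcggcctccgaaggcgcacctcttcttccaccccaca
Of the 32 members, 1 held a gamma-activated site, Psmb8 (3.13%), against 8.13% of the 27025 genes. The D-box letters TTATGNAA, bound by clock output factors, were found upstream of 0 of 32 members, against 3.63% of all genes. A match is a description of these letters and does not show that a factor binds there.

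Levels are FPKM, fragments per kilobase of transcript scaled to the mapped fragments of the library, as the authors deposited them. Tests were run with limma on log2(FPKM + 1) for the 10837 genes whose mean reached 1 FPKM, with p-values adjusted by Benjamini-Hochberg over all of them and a threshold of 0.05. Of the 39 members, 37 passed this filter. Absolute read numbers were not used here; the relative depth inferred from low values put the shallowest library at 57.7% of the deepest, with medians of 73.6% in Bmal1hep-/- and 68.7% in WT libraries. Summed muscle fibre markers lay between 53791 and 123457 FPKM in Bmal1hep-/- and between 74068 and 108799 FPKM in WT libraries, although Acta1 was listed at 0 in 1 Bmal1hep-/- library (ZT16 replicate 3) and Myh4 had a median of 0 FPKM over the 36 libraries, with a maximum of 8323 FPKM. Arntl, the gene for Bmal1, ranged from 1.63 to 18.2 FPKM in Bmal1hep-/- and from 1.81 to 17.6 FPKM in WT muscle; the deletion is in liver, so its level in muscle checks no label. Several library differences bear on the results below. Lymphocyte markers stood at a summed 28.2 to 51.2 FPKM in Bmal1hep-/- ZT4 replicate 1, ZT16 replicate 1 and ZT20 replicate 3, and at 0.235 to 2.26 FPKM in the other 33 libraries. Adipocyte markers reached 877.6 FPKM in Bmal1hep-/- ZT4 replicate 1 and 684.8 FPKM in Bmal1hep-/- ZT20 replicate 3, against 199.3 FPKM at most in WT libraries. Hepatocyte markers reached 217.6 FPKM in WT ZT8 replicate 3. Libraries also differed in how level varied with transcript length. In bulk tissue, fewer cells of a type and less RNA per cell cannot be told apart.

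Proteasome subunit mRNA was abundant in muscle and its level differed between the roles of the subunits. The median of the 37 members' mean levels was 88.7 FPKM, at the 92.8th percentile of the 10837 genes tested, whose median was 7.60 FPKM. Of the 37 members, 29 averaged over 50 FPKM and 6 under 15 FPKM. Those 6 were the immunoproteasome subunits Psmb8, Psmb9 and Psmb10 and the assembly chaperones Psmd5, Psmd9 and Psmd10, so that no constitutive structural or catalytic subunit was among them. All 39 members together held 0.552% ± 0.0245 of the FPKM sum in Bmal1hep-/- libraries and 0.548% ± 0.0185 in WT libraries (SD, n = 18 each). Their summed level ran from 2883 to 4353 FPKM in Bmal1hep-/- and from 3070 to 3898 FPKM in WT libraries, so the ranges overlapped.

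**Figure D1:**
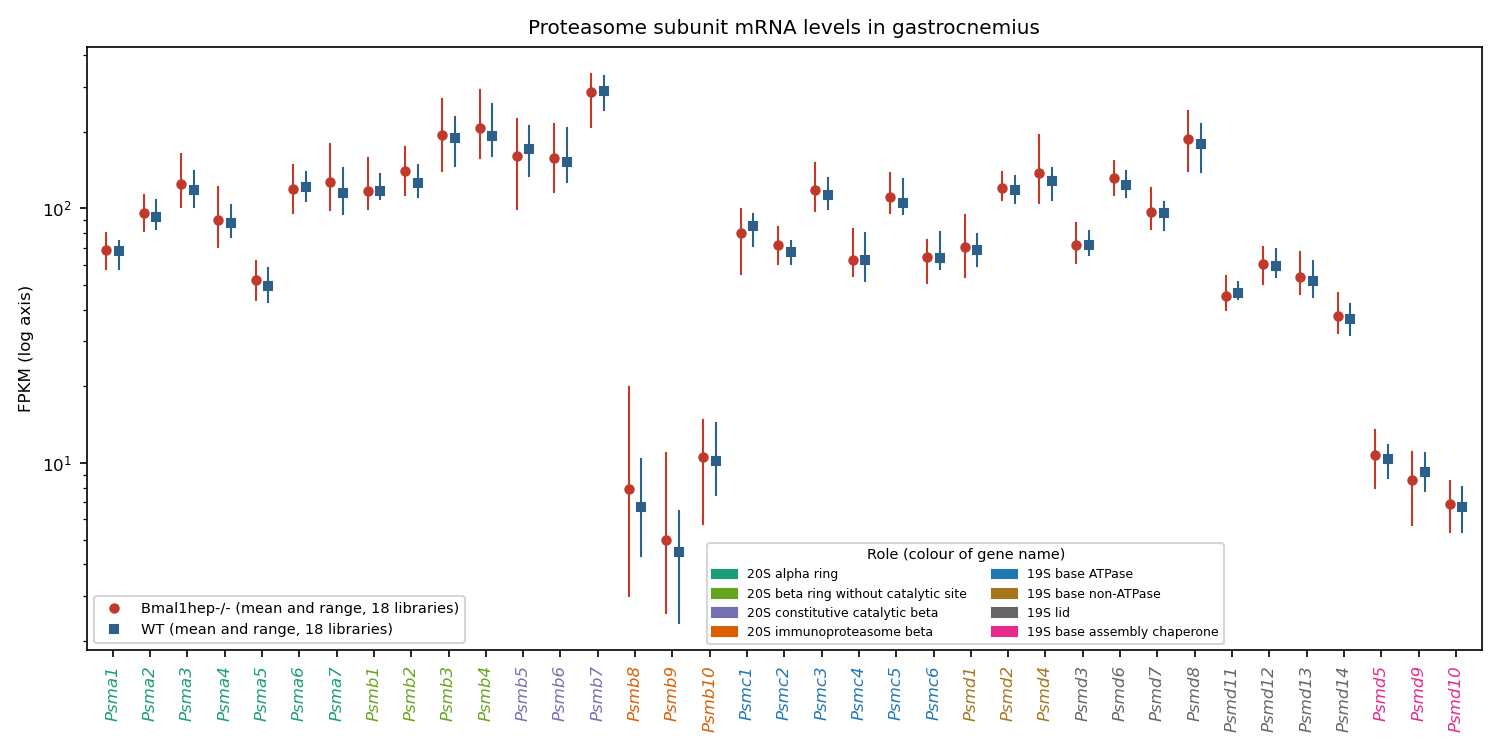
Mean FPKM (log axis) of each of the 37 tested subunits in 18 Bmal1hep-/- and 18 WT libraries, with bars from the lowest to the highest library and gene names coloured by role. Immunoproteasome subunits and assembly chaperones lie below 15 FPKM, and the bars of both genotypes overlap for every gene.

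Within the core particle, the 7 alpha-ring subunits Psma1 to Psma7 ranged 2.38-fold, with mean levels between 50.9 FPKM for Psma5 and 121 FPKM for Psma3. The beta-ring subunits without a catalytic site, Psmb1, Psmb2, Psmb3 and Psmb4, lay between 117 FPKM for Psmb1 and 199 FPKM for Psmb4. Of the constitutive catalytic subunits, Psmb6, the caspase-like protease, averaged 154 FPKM, Psmb5, the chymotrypsin-like protease, 165 FPKM, and Psmb7, the trypsin-like protease, 287 FPKM, the highest mean of all members. Their immune counterparts averaged 4.74 FPKM for Psmb9, 7.30 FPKM for Psmb8 and 10.4 FPKM for Psmb10. In the regulatory particle, the ATPases of the base lay between 62.7 FPKM for Psmc4 and 115 FPKM for Psmc3. The base scaffold Psmd1 averaged 69.7 FPKM and the ubiquitin receptor Psmd4 averaged 133 FPKM. The lid ranged 4.89-fold, with 37.3 FPKM for Psmd14, the enzyme that removes ubiquitin chains, and 182 FPKM for Psmd8. The base assembly chaperones lay between 6.82 FPKM for Psmd10 and 10.5 FPKM for Psmd5. The 2 members that did not pass the filter were Psma8, an alpha subunit of testis, at a mean of 0.0173 FPKM and at 0 in 24 libraries, and Psmb11, the beta subunit of the thymus, at 0.00186 FPKM and at 0 in 33 libraries.

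Replicate spread was small for most subunits. The standard deviation within groups on the log2 scale had a median of 0.135 over the 37 members, against 0.179 over all genes tested and 0.164 over the 1085 tested genes of 50 to 300 FPKM. Psmd11, a lid subunit, had the smallest spread (0.089, the 2.14th percentile of tested genes). The constitutive catalytic subunits had a median spread of 0.203 and the immunoproteasome subunits of 0.340. Psmb8 had the widest spread of the members (0.349, the 92.5th percentile).

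Over all times together, no proteasome subunit passed the test between genotypes, and most subunits were bounded to small differences. The count was 0 of 37 members by limma, with 0% of the 10837 genes called. At an unadjusted p under 0.05, 4 of 37 members (10.8%) had a difference, against 8.37% of all genes. These 4 were the alpha subunit Psma7, the beta subunit Psmb2, the ATPase Psmc2 and the ubiquitin receptor Psmd4, each with the higher mean in Bmal1hep-/- muscle (background in that direction 3.98%). The median difference (Bmal1hep-/- minus WT, log2) was 0.04 over the members and -0.0028 over all genes tested, and 29 of 37 members lay above 0, against 48.4% of all genes. The count was again 29 after median-of-ratios rescaling or quantile normalization, and 27 with the length trend removed. Members rose and fell together within libraries, as described below, so these counts are not of independent observations. The median deviation of the members per library had a within-group SD of 0.09 on the log2 scale. The 95% interval of the difference lay within ±0.25 on the log2 scale, a 1.19-fold change either way, for 33 of 37 members (89.2%), against 79.7% of all genes. The other 4 were Psma7, Psmb5, Psmb8 and Psmb9.

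By role, the alpha ring, which gates entry to the barrel, had a median difference of 0.05, with 6 of 7 members above 0, from -0.03 for Psma6 to 0.14 for Psma7. The structural beta subunits ranged from -0.0061 for Psmb1 to 0.16 for Psmb2, with 3 of 4 above 0. The constitutive catalytic subunits ranged from -0.10 for Psmb5 to 0.05 for Psmb6, with 1 of 3 above 0. The 3 immunoproteasome subunits lay above 0, at 0.04 for Psmb10, 0.09 for Psmb9 and 0.14 for Psmb8. They lay at -0.03 each without the 6 libraries that stood apart. Those were mostly Bmal1hep-/- libraries: ZT4 replicate 1, ZT8 replicate 2, ZT12 replicate 2, ZT16 replicate 3 and ZT20 replicate 3. The remaining library was WT ZT8 replicate 3. The set includes the libraries with the highest Psmb8 and Psmb9 levels. The base ATPases ranged from -0.10 for Psmc1 to 0.09 for Psmc2, with 5 of 6 above 0. The other base subunits ranged from 0.02 for Psmd2 to 0.10 for Psmd4. The lid ranged from -0.04 for Psmd11 to 0.09 for Psmd6, with 6 of 8 above 0. The assembly chaperones ranged from -0.11 for Psmd9, the lowest of all members, to 0.05 for Psmd5. Of the genes with an antioxidant response core upstream, Psmd9 (-0.11) and Psmb5 (-0.10) lay below 0, and Psmb6 (0.05), Psmc6 (0.01) and Psmd12 (0.03) lay near 0.

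**Figure D2:**
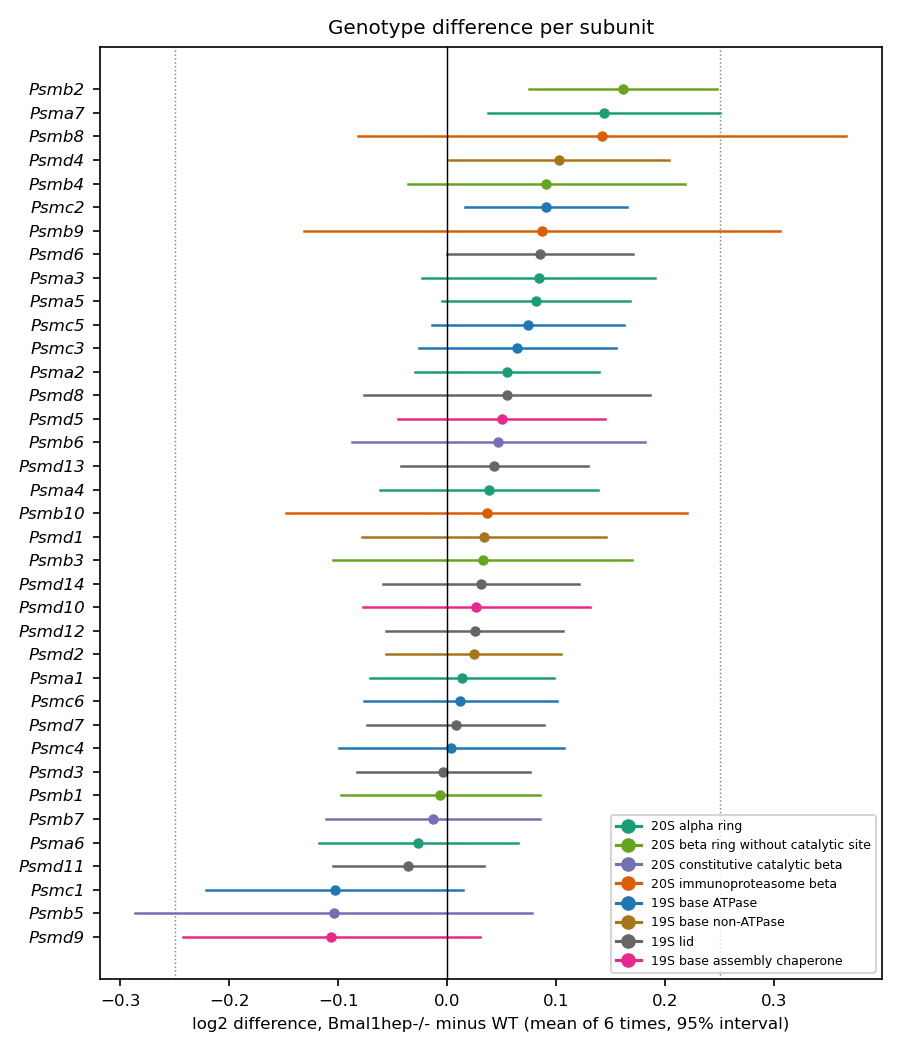
Difference between genotypes for each of the 37 tested subunits (log2, Bmal1hep-/- minus WT, mean of the 6 times) with its 95% interval from limma, coloured by role. Dotted lines mark ±0.25; 33 of 37 intervals lie between them, and Psmb2 has the highest estimate at 0.16.

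Psmb2, a beta-ring subunit without a catalytic site (chromosome 4, 126677637 to 126709715, build GRCm38), had the smallest genotype p of the members. Bmal1hep-/- libraries held 132, 132 and 119 FPKM (ZT0), 113, 173 and 159 (ZT4), 146, 131 and 139 (ZT8), 148, 168 and 142 (ZT12), 146, 147 and 145 (ZT16), 125, 138 and 122 (ZT20). WT libraries held 118, 111 and 114 FPKM (ZT0), 115, 114 and 116 (ZT4), 113, 118 and 117 (ZT8), 129, 121 and 136 (ZT12), 147, 129.7 and 147 (ZT16), 129, 135 and 140.3 (ZT20). All Bmal1hep-/- libraries lay above all WT libraries at ZT0, ZT8 and ZT12, while the groups overlapped at ZT4 through the single low replicate 1 of Bmal1hep-/-, and at ZT16 and ZT20. The means over all times were 140.2 ± 16.2 FPKM in Bmal1hep-/- and 125 ± 12.0 FPKM in WT muscle (SD, n = 18 each). The difference was 0.16 ± 0.04 (log2, SE), with a 95% interval of 0.08 to 0.25 and a higher mean in Bmal1hep-/- at 5 of 6 times, and did not pass (limma, adjusted p = 0.22). By time it was 0.16 (ZT0), 0.34 (ZT4), 0.25 (ZT8), 0.24 (ZT12), 0.05 (ZT16) and -0.07 (ZT20).

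Whether Psmb2 passed changed with the libraries used and their weights. Bmal1hep-/- ZT4 replicate 1, which held 112.8 FPKM against 173.3 and 159.4 FPKM in the other replicates, is also a library with lymphocyte and adipocyte markers. Without it, the difference over all times was 0.19 with an adjusted p of 0.0166 (limma), and that at ZT4 was 0.53 with an adjusted p of 0.0097. As the lowest of 3 replicates was left out, both differences rose. In the 35 other fits without 1 library, Psmb2 did not pass over all times (limma, adjusted p up to 0.363) or at ZT4. Without Bmal1hep-/- ZT4 replicate 2, the difference was 0.14 over all times and 0.22 at ZT4. Without the 3 libraries that held lymphocyte markers, an alternative chosen after seeing the data, the difference was 0.20 with an adjusted p of 0.0455, and Psmb2 was the 1 gene of all those tested that passed. Without the 6 libraries that stood apart, which include ZT4 replicate 1, it was 0.19 and did not pass (adjusted p = 0.0534). With all libraries kept and array weights, which give libraries unequal weight, it was 0.17 and passed (limma, adjusted p = 0.00613). The estimation of these weights stopped before it converged, and with them 186 of all genes were called over all times. Over the other 7 alternatives that kept every library, the adjusted p lay between 0.127 and 0.39. The part of these markers in the result was not tested.

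Psma7, an alpha-ring subunit, came next. Bmal1hep-/- libraries held 133, 128 and 122 FPKM (ZT0), 117, 122 and 128 (ZT4), 115, 142 and 120.0 (ZT8), 142, 179 and 111 (ZT12), 123, 126 and 136 (ZT16), 121, 118 and 98.4 (ZT20). Its WT values were 94.7, 109.6 and 122 FPKM (ZT0), 103, 108 and 107 (ZT4), 104, 120.0 and 117 (ZT8), 122, 106 and 109 (ZT12), 117, 118 and 130.0 (ZT16), 119, 108 and 144 (ZT20). The groups were apart at ZT4, with every Bmal1hep-/- library higher, and overlapped at the other 5 times. The means were 127 ± 16.8 FPKM in Bmal1hep-/- and 114 ± 11.4 FPKM in WT muscle, a difference of 0.14 ± 0.05 (log2, SE; limma, adjusted p = 0.388).

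Psmc2, an ATPase of the base, stood in Bmal1hep-/- muscle at 68.1, 65.1 and 63.7 FPKM (ZT0), 60.2, 75.0 and 76.6 (ZT4), 72.5, 70.7 and 70.9 (ZT8), 76.9, 84.6 and 68.4 (ZT12), 72.0, 71.9 and 77.8 (ZT16), 69.9, 79.8 and 65.96 (ZT20). The WT libraries gave 60.3, 63.7 and 65.4 FPKM (ZT0), 64.9, 66.9 and 64.8 (ZT4), 61.5, 67.1 and 70.6 (ZT8), 65.9, 70.8 and 71.4 (ZT12), 67.3, 71.4 and 68.3 (ZT16), 65.7, 67.4 and 74.5 (ZT20). Every Bmal1hep-/- library lay above every WT library at ZT8 and ZT16, by a small margin at ZT8, and the groups overlapped at the other 4 times. Its mean was 71.7 ± 6.11 FPKM in Bmal1hep-/- and 67.1 ± 3.62 FPKM in WT muscle (SD, n = 18 each; difference 0.09 ± 0.04, adjusted p = 0.451). Psmd4, the ubiquitin receptor, stood in Bmal1hep-/- muscle at 139.8, 125 and 124 FPKM (ZT0), 123.2, 165 and 140.2 (ZT4), 135, 146 and 120.0 (ZT8), 162, 193 and 130.4 (ZT12), 127, 145 and 138 (ZT16), 130.5, 129.9 and 105 (ZT20). In WT muscle it stood at 107, 115 and 139 FPKM (ZT0), 116, 124 and 116 (ZT4), 128, 128 and 132 (ZT8), 130.1, 130.1 and 126 (ZT12), 137, 137 and 140.3 (ZT16), 125, 119 and 144 (ZT20). The groups were apart at ZT12, where replicate 3 of Bmal1hep-/- and the WT libraries nearly touched. Its mean was 138 ± 19.9 FPKM in Bmal1hep-/- and 127.5 ± 9.94 FPKM in WT muscle (difference 0.10 ± 0.05, adjusted p = 0.594).

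At single times, 0 of 37 members passed in any of the 6 comparisons by limma, with 0% of all genes called at each. Unadjusted p-values under 0.05 were found for 1 of 37 members (ZT0, background 2.2%), 4 (ZT4, 9.06%), 1 (ZT8, 3.08%), 7 (ZT12, 7.25%), 1 (ZT16, 2.45%) and 5 (ZT20, 12.6%). The median difference of the members was 0.06 (ZT0), 0.11 (ZT4), 0.00089 (ZT8), 0.16 (ZT12), 0.04 (ZT16) and -0.08 (ZT20). Over all genes tested the medians lay between -0.01 and 0.01. With 3 libraries a group, single libraries moved these medians. At ZT0 the median was 0.02 without WT replicate 1, 0.10 without WT replicate 3 and 0.03 without Bmal1hep-/- replicate 1, and 0.01 with quantile normalization. At ZT4 it was 0.06 without Bmal1hep-/- replicate 2, 0.05 without Bmal1hep-/- replicate 3 and 0.06 with the length trend removed. At ZT8 it ranged from -0.04 to 0.03 over the fits without 1 library. At ZT16 it was -0.0012 without WT replicate 2, with 18 of 37 members above 0, 0.07 without WT replicate 3, and 0.01 without Bmal1hep-/- replicate 2 or with the length trend removed.

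Groups of 3 libraries that did not overlap were counted at each time, as a share of the 37 members and of all genes. At ZT0 every Bmal1hep-/- library lay above every WT library for 2 members, Psma3 and Psmb2 (5.41%, background 6.55%), and below for 1, Psmb8 (2.7%, background 5.79%). At ZT4 it was 3 above, Psma7, Psmb4 and Psmb8 (8.11%, against 6.98%), and 1 below, Psmd11 (2.7%, against 8.37%). At ZT8 it was 4 above, Psma2, Psmb2, Psmc2 and Psmd13 (10.8%, against 2.41%), and 1 below, Psmd11 (2.7%, against 4.13%). At ZT12 Psmb2 was above again, as were Psma5, Psmc5, Psmd3 and Psmd4 (5 members, 13.5%, against 4.39%), with Psmd5 below (1 member, 2.7%, against 4.41%). At ZT16 it was 4 above, Psmb8, Psmb10, Psmc2 and Psmd11 (10.8%, against 5.48%), and 0 below (background 3.96%). At ZT20 it was Psmb8 above (1 member, 2.7%, against 4.63%) and Psma4, Psmd8 and Psmd13 below (3 members, 8.11%, against 6.52%). Members varied together within libraries, so these counts are not of independent observations.

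At ZT12, 30 of 37 members had the higher mean in Bmal1hep-/- muscle, against 46.6% of all genes, and at ZT20, 9 of 37 did, against 50.4%. Bmal1hep-/- ZT12 replicate 2 held the highest level of all 36 libraries for 21 of 37 members and lay above the member's own mean for 33. Without it, the median at ZT12 was 0.06 with 25 of 37 members above 0, and without Bmal1hep-/- ZT12 replicate 3 it was 0.26 with 31 of 37. Bmal1hep-/- ZT20 replicate 3 was the lowest library for 12 members and lay above the mean for 5. This library also held summed lymphocyte, macrophage and adipocyte markers of 51.2, 148.9 and 684.8 FPKM, whose part in its levels was not tested. Without it, the median at ZT20 was -0.04 with 16 of 37 members above 0. It was -0.02 without WT replicate 3 of that time (13 of 37), and -0.13 without Bmal1hep-/- replicate 1 (9 of 37) or replicate 2 (5 of 37). These 2 libraries differed in their trend with transcript length, with Spearman's rho across genes of -0.57 in ZT12 replicate 2 and 0.34 in ZT20 replicate 3. The longest transcripts of the members had a median length of 1883 bases, against 3311.5 bases for all genes tested. The 10 Bmal1hep-/- libraries with a rho below 0 all had a median member deviation above 0, as did 1 of the 8 with a rho above 0; in WT it was 5 of 7 and 1 of 11. With the length trend of each library removed, the median was 0.02 at ZT12 and 0.03 at ZT20, with 24 and 22 of 37 members above 0. The direction at ZT20 thus turned with this setting and with quantile normalization (0.01, 21 of 37).

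**Figure D3:**
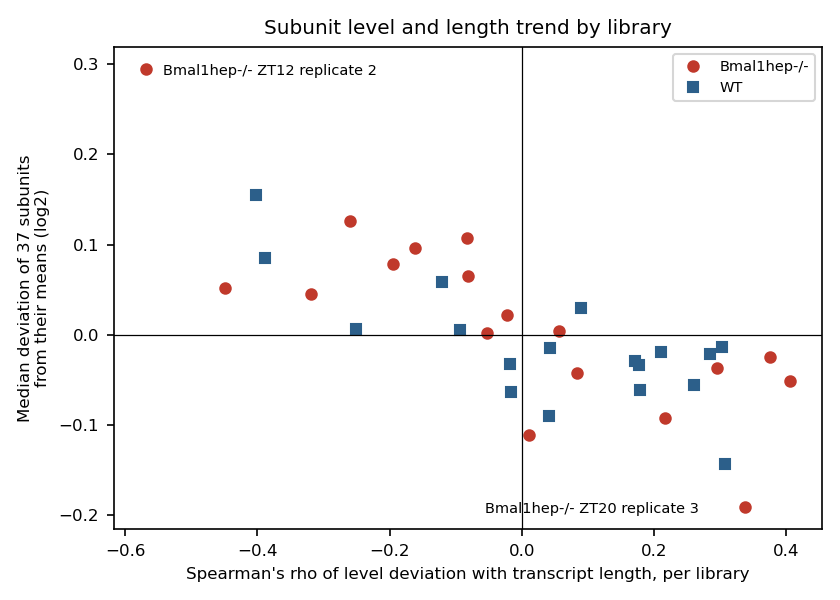
Median deviation of the 37 subunits from their own means (log2, y axis) against Spearman's rho of level deviation with transcript length (x axis), 1 point per library. Libraries with a negative rho mostly lie above 0; Bmal1hep-/- ZT12 replicate 2 has the highest median deviation (0.29) and ZT20 replicate 3 the lowest (-0.19).

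Psmd11, a lid subunit, stood in Bmal1hep-/- muscle at 45.3, 43.9 and 45.6 FPKM (ZT0), 42.9, 39.8 and 40.5 (ZT4), 43.9, 43.0 and 43.4 (ZT8), 54.1, 39.8 and 48.2 (ZT12), 51.7, 47.5 and 48.6 (ZT16), 48.6, 49.2 and 40.6 (ZT20). WT libraries held 43.8, 44.9 and 47.4 FPKM (ZT0), 46.9, 51.5 and 47.5 (ZT4), 44.3, 47.3 and 47.3 (ZT8), 44.6, 45.3 and 45.2 (ZT12), 46.4, 45.3 and 47.4 (ZT16), 45.4, 48.9 and 45.2 (ZT20). Every Bmal1hep-/- library was lower at ZT4 and ZT8 and higher at ZT16, and the groups overlapped at the other 3 times. The difference was -0.24 ± 0.08 at ZT4 (log2, SE; limma, adjusted p = 0.433), -0.09 at ZT8 and 0.08 at ZT16. Psmd9, an assembly chaperone, stood in Bmal1hep-/- muscle at 8.78, 8.23 and 7.81 FPKM (ZT0), 7.97, 6.78 and 10.9 (ZT4), 6.13, 10.4 and 8.37 (ZT8), 8.73, 11.03 and 7.41 (ZT12), 10.2, 9.69 and 10.4 (ZT16), 9.12, 5.69 and 6.46 (ZT20). Its WT values were 7.74, 8.39 and 9.58 FPKM (ZT0), 9.03, 9.8 and 9.68 (ZT4), 7.88, 10.96 and 10.1 (ZT8), 9.28, 7.83 and 8.67 (ZT12), 8.32, 8.82 and 10.2 (ZT16), 10.2, 8.36 and 10.5 (ZT20). The groups overlapped at every time, and at ZT20 only replicate 1 of Bmal1hep-/- reached the WT range (difference -0.42 ± 0.16, limma, adjusted p = 0.368).

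The constitutive catalytic subunits did not pass any genotype test with the main settings. With array weights, Psmb5, Psmb6 and Psmb7 were called at ZT8, where 2098 of all genes were. Psmb6 and Psmb7 were also called at ZT12 (2068 of all genes). All 3 were called for a genotype difference that varied with time (2394 of all genes). Psmb5 in Bmal1hep-/- muscle stood at 165, 183 and 158 FPKM (ZT0), 145, 179.6 and 172 (ZT4), 114, 224 and 149 (ZT8), 169, 225 and 122 (ZT12), 147, 174 and 149.9 (ZT16), 201, 116 and 99.0 (ZT20). The WT libraries gave 158, 160.3 and 185 FPKM (ZT0), 176, 177 and 176 (ZT4), 177, 201 and 201 (ZT8), 143, 148 and 141 (ZT12), 134, 165 and 210.0 (ZT16), 161, 148 and 203 (ZT20). The groups overlapped at every time, and single Bmal1hep-/- libraries ranged from 99.0 to 224.5 FPKM. The difference over all times was -0.10 ± 0.09 (log2, SE), with a 95% interval of -0.29 to 0.08 (limma, adjusted p = 0.815).

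Psmb6 in Bmal1hep-/- muscle stood at 160.2, 162 and 154 FPKM (ZT0), 152, 179 and 149.5 (ZT4), 142, 198 and 139 (ZT8), 162, 214 and 127 (ZT12), 142, 174 and 163 (ZT16), 155, 141 and 115 (ZT20). In WT muscle it stood at 138, 153 and 159 FPKM (ZT0), 154, 149 and 144 (ZT4), 147, 170.5 and 173 (ZT8), 142, 127 and 134 (ZT12), 142, 149 and 172 (ZT16), 140.2, 130.0 and 207 (ZT20). The groups overlapped at all 6 times, and the difference was 0.05 ± 0.07 (adjusted p = 0.906). Psmb7 in Bmal1hep-/- muscle stood at 307, 299.8 and 294 FPKM (ZT0), 275, 309 and 262 (ZT4), 281, 323 and 258 (ZT8), 315, 335 and 247 (ZT12), 278, 309 and 287 (ZT16), 295, 261 and 209 (ZT20). WT libraries held 281, 290.5 and 316 FPKM (ZT0), 304, 281 and 303 (ZT4), 292, 331 and 308 (ZT8), 257, 252 and 243 (ZT12), 252, 293 and 297 (ZT16), 281, 272 and 329 (ZT20). The groups again overlapped at all 6 times, with a difference of -0.01 ± 0.05 (adjusted p = 0.972) whose sign turned under quantile normalization. Exons of Psmb7 overlap Nek6 on the other strand, and whether counting used strand is not stated.

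The immunoproteasome subunits were low and spread widely. Psmb8 (chromosome 17, 34198195 to 34201454) stood in Bmal1hep-/- muscle at 4.96, 6.21 and 5.24 FPKM (ZT0), 12.3, 8.11 and 9.15 (ZT4), 3.0, 7.43 and 5.4 (ZT8), 7.96, 8.53 and 4.6 (ZT12), 8.66, 7.79 and 8.67 (ZT16), 7.51, 7.0 and 19.9 (ZT20). Its WT values were 7.6, 10.4 and 7.74 FPKM (ZT0), 7.82, 5.22 and 6.72 (ZT4), 6.78, 7.9 and 7.27 (ZT8), 7.49, 5.4 and 6.26 (ZT12), 4.33, 5.37 and 6.58 (ZT16), 6.46, 4.74 and 6.48 (ZT20). Every Bmal1hep-/- library was lower at ZT0 and higher at ZT4, ZT16 and ZT20, with overlap at ZT8 and ZT12. The difference was -0.56 (ZT0), 0.51 (ZT4), -0.47 (ZT8), 0.09 (ZT12), 0.56 (ZT16) and 0.72 (ZT20) on the log2 scale, with an SE of 0.27 each, and none passed (limma, adjusted p from 0.362 to 1). Of the members, Psmb8 had the smallest p for a genotype difference that varied with time, and it did not pass (limma, adjusted p = 0.899). For that test 0 of 37 members and 0% of all genes were called, and Psmb8 was the 1 member (2.7%) with an unadjusted p under 0.05, against 4.64% of all genes.

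Psmb9 stood in Bmal1hep-/- muscle at 2.58, 6.18 and 3.56 FPKM (ZT0), 7.95, 5.72 and 7.29 (ZT4), 2.89, 4.86 and 2.79 (ZT8), 3.52, 3.97 and 4.28 (ZT12), 3.93, 6.37 and 4.87 (ZT16), 5.14, 3.2 and 10.9 (ZT20). The WT libraries gave 4.68, 6.15 and 5.71 FPKM (ZT0), 6.5, 5.24 and 5.92 (ZT4), 3.6, 5.32 and 4.39 (ZT8), 3.12, 3.99 and 5.02 (ZT12), 2.35, 3.75 and 4.02 (ZT16), 3.38, 3.95 and 3.45 (ZT20). The groups overlapped at every time, and the difference over all times was 0.09 ± 0.11 (log2, SE; adjusted p = 0.889). Its exons overlap Tap1, a peptide transporter gene read from the other strand. Psmb10 stood in Bmal1hep-/- muscle at 8.93, 10.01 and 12.7 FPKM (ZT0), 10.2, 14.7 and 9.9 (ZT4), 5.74, 14.1 and 9.3 (ZT8), 9.07, 13.8 and 10.3 (ZT12), 10.6, 10.5 and 10.4 (ZT16), 10.6, 7.8 and 11.1 (ZT20). In WT muscle it stood at 9.65, 10.95 and 11.9 FPKM (ZT0), 11, 8.36 and 7.84 (ZT4), 10.5, 10.8 and 11.5 (ZT8), 12.9, 7.46 and 7.96 (ZT12), 10.2, 10.2 and 9.4 (ZT16), 9.61, 8.78 and 14.4 (ZT20). The groups overlapped at 5 times, and at ZT16 the Bmal1hep-/- libraries lay just above the WT libraries. The difference over all times was 0.04 ± 0.09 (adjusted p = 0.952).

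The highest Psmb8 and Psmb9 levels came from libraries that held markers of lymphocytes, cells in which immunoproteasomes are abundant. Bmal1hep-/- ZT20 replicate 3 was first and ZT4 replicate 1 second of 36 libraries for Psmb8, at 19.9 and 12.3 FPKM, and for Psmb9, at 10.9 and 7.95 FPKM. The same 2 libraries were first and second for the B-cell gene Cd79a, at 17.6 and 16.0 FPKM, and for the T-cell gene Cd3e, at 4.45 and 3.44 FPKM. The third library with these markers, ZT16 replicate 1, ranked sixth for Psmb8 and 24th for Psmb9. All 6 lymphocyte markers were above 0 in these 3 libraries, and at least 1 was at 0 in each of the other 33. Summed macrophage markers were 66.8 to 148.9 FPKM in the 3 libraries and 26.99 to 91.5 FPKM in the others. Psmb10 stood at 10.2 to 11.1 FPKM in the 3 libraries, ranks 9 to 20 of 36. Without them, the Psmb8 difference was 0.36 at ZT4, 0.54 at ZT16 and 0.27 at ZT20, against 0.51, 0.56 and 0.72 with them. The Psmb9 difference was 0.12 at ZT4, 0.61 at ZT16 and 0.15 at ZT20, against 0.21, 0.47 and 0.56 with them. The part of lymphocyte RNA in the Psmb8 and Psmb9 levels was not tested, in these 3 libraries or in the others.

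**Figure D4:**
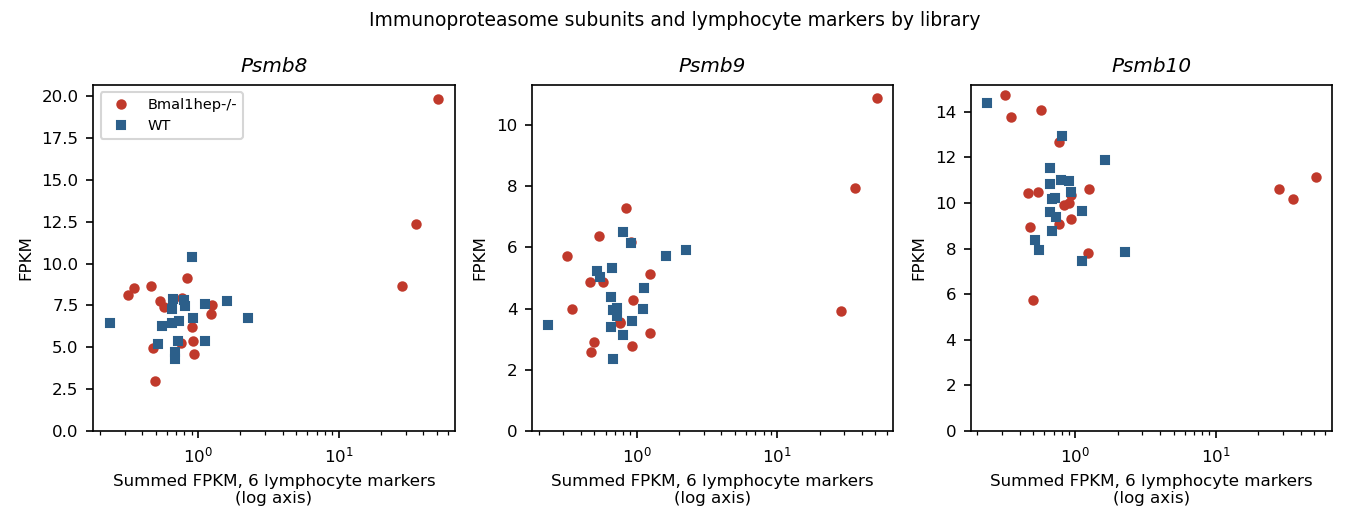
FPKM of Psmb8, Psmb9 and Psmb10 (y axes) against the summed FPKM of 6 lymphocyte markers (log x axis), 1 point per library. The 3 Bmal1hep-/- libraries at the right hold 28.2 to 51.2 FPKM of markers and include the 2 highest Psmb8 and Psmb9 values and Psmb10 values of 10.2 to 11.1 FPKM.

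As a share of each catalytic pair, the immune form was a small minority in both genotypes. Psmb8 made up 4.95% ± 3.21 of Psmb8 plus Psmb5 in Bmal1hep-/- and 3.81% ± 0.812 in WT muscle (SD, n = 18 each), with a highest library of 16.7% in Bmal1hep-/- and 6.09% in WT muscle. Without the 3 libraries that held lymphocyte markers, the Bmal1hep-/- share was 3.93% ± 0.932 (SD, n = 15). Psmb9 made up 3.16% ± 1.65 of Psmb9 plus Psmb6 in Bmal1hep-/- and 2.89% ± 0.754 in WT muscle, and without the same 3 libraries the Bmal1hep-/- share was 2.71% ± 0.85, below the WT mean. Psmb10 made up 3.57% ± 0.706 of Psmb10 plus Psmb7 in Bmal1hep-/- and 3.42% ± 0.517 in WT muscle. The genotypes overlapped in all 3 shares. These are shares of mRNA per length, not of assembled proteasomes.

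Across libraries, Psmb8 and Psmb9 varied together. On the log2 scale Pearson's r was 0.735 and Spearman's rho 0.594 over 36 libraries (permutation p = 1e-05, the smallest that 100000 permutations can give, and 0.00021; adjusted 6e-05 and 0.00126 over 6 relations). Within genotypes r was 0.787 in Bmal1hep-/- and 0.587 in WT libraries, and it was 0.602 without the 3 libraries that held lymphocyte markers. Without the 2 libraries farthest from the Psmb8 median r was 0.619. Psmb8 and Psmb10 gave lower values (r = 0.429, rho = 0.471, adjusted permutation p = 0.0301 and 0.011). Their r was 0.311 without the 2 farthest libraries and 0.521 without the 3 libraries that held lymphocyte markers. Psmb9 and Psmb10 gave r = 0.186 and rho = 0.225 (adjusted permutation p = 0.414 and 0.278). For this pair the sign differed by genotype, with r = 0.372 in Bmal1hep-/- and -0.181 in WT libraries. Between each immune subunit and its constitutive counterpart, r was 0.022 for Psmb8 and Psmb5, -0.039 for Psmb9 and Psmb6, and 0.372 for Psmb10 and Psmb7 (rho 0.183, 0.18 and 0.457; adjusted permutation p of r 0.9, 0.9 and 0.0511, and of rho 0.296, 0.296 and 0.011). Without the 3 libraries that held lymphocyte markers, these r were 0.527, 0.177 and 0.493; without the 2 farthest libraries they were 0.254, 0.182 and 0.393, and that of Psmb9 and Psmb10 was 0.182. Libraries share depth, tissue makeup and time, so these relations are not between cells.

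Over the day, amplitudes of the proteasome subunits were small in either genotype, as were those of most genes tested. Time was tested by a cosine of 24 h period, whose amplitude is the distance between its mean and its peak on the log2 scale. In Bmal1hep-/- muscle 0 of 37 members were rhythmic by limma, against 5.47% of all genes, with 3 members at an unadjusted p under 0.05 (8.11%, against 16.3% of all genes). In WT muscle 1 of 37 was (2.7%), against 6.03% of all genes, with 2 members at an unadjusted p under 0.05 (5.41%, against 16.8%). The 1 called was Psmb2. In the mean of both genotypes Psmb2 was again the 1 member called, against 12.4% of all genes. Unadjusted, 4 members had a p under 0.05 in the mean (10.8%), against 23% of all genes. Amplitudes had a median of 0.07 over the members in either genotype, against 0.09 over all genes in either. They were under 0.25 for 37 of 37 members in Bmal1hep-/- (93.3% of all genes) and for 36 of 37 in WT muscle (92.8% of all genes). The exception was Psmb9 in WT muscle (0.33 ± 0.12, adjusted p = 0.226). Tested as any difference between the 6 times, 0 of 37 members passed in either genotype, against 3.09% of all genes in Bmal1hep-/- and 3.08% in WT muscle, with 3 members in Bmal1hep-/- (8.11%, against 15.2% of all genes) and 1 in WT muscle (2.7%, against 11.4%) at an unadjusted p under 0.05.

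Psmb2 in WT muscle had an amplitude of 0.16 ± 0.04 (log2, SE), a 1.25-fold change between trough and peak, with its peak at 16.3 ± 0.98 h (limma, adjusted p = 0.0353). In the FPKM values above this is the step between 111 to 118 FPKM in the WT libraries of ZT0, ZT4 and ZT8 and 121 to 147 FPKM in those of ZT12, ZT16 and ZT20, with no overlap. In Bmal1hep-/- muscle the amplitude was 0.11 ± 0.04 with a peak at 10.9 ± 1.45 h (adjusted p = 0.282). The difference between the 2 rhythms did not pass (limma, adjusted p = 0.913), and neither did that of any other member (0 of 37, against 0% of all genes, with 3 members or 8.11% at an unadjusted p under 0.05, against 4.01%). In the mean of both genotypes the amplitude was 0.10 ± 0.03 with a peak at 14.2 h (adjusted p = 0.0408). Leaving out single libraries ended the WT call in 10 of 36 fits (WT ZT0 replicates 2 and 3, ZT4 replicates 1 and 2, ZT8 replicate 1, ZT12 replicate 3, ZT16 replicates 1 and 3, and ZT20 replicates 2 and 3). Removing the length trend (adjusted p = 0.19) or quantile normalization (adjusted p = 0.0539) ended it too. The call for the mean ended in 16 of the fits without 1 library. These left out 7 WT libraries (all of ZT0, and replicates 1 and 3 of ZT12 and of ZT16) and 9 Bmal1hep-/- libraries (all of ZT0 and ZT16, ZT4 replicate 1, and ZT12 replicates 1 and 2). It also ended with no filter on low values (adjusted p = 0.0517), with quantile normalization (0.0646), with the length trend removed (0.211), without the 6 libraries that stood apart (0.171) and without the 3 with lymphocyte markers (0.127).

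Other members of small p did not pass. Psmd11 in Bmal1hep-/- muscle had an amplitude of 0.11 ± 0.03 with a peak at 16.2 h (adjusted p = 0.0886), against 0.02 ± 0.03 in WT muscle. It was called in Bmal1hep-/- muscle without ZT12 replicate 2 or without ZT20 replicate 3. Psmc2 in the mean of both genotypes had an amplitude of 0.07 ± 0.02 with a peak at 13.7 h (adjusted p = 0.114). The genes with an E-box upstream had small amplitudes in both genotypes. Psma4 had 0.03 ± 0.05 in Bmal1hep-/- and 0.05 ± 0.05 in WT muscle, Psmb10 had 0.02 ± 0.09 in Bmal1hep-/- and 0.05 ± 0.09 in WT muscle, and Psmd9 had 0.11 ± 0.07 in Bmal1hep-/- and 0.02 ± 0.07 in WT muscle (adjusted p from 0.667 to 0.997 in limma).

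**Figure D5:**
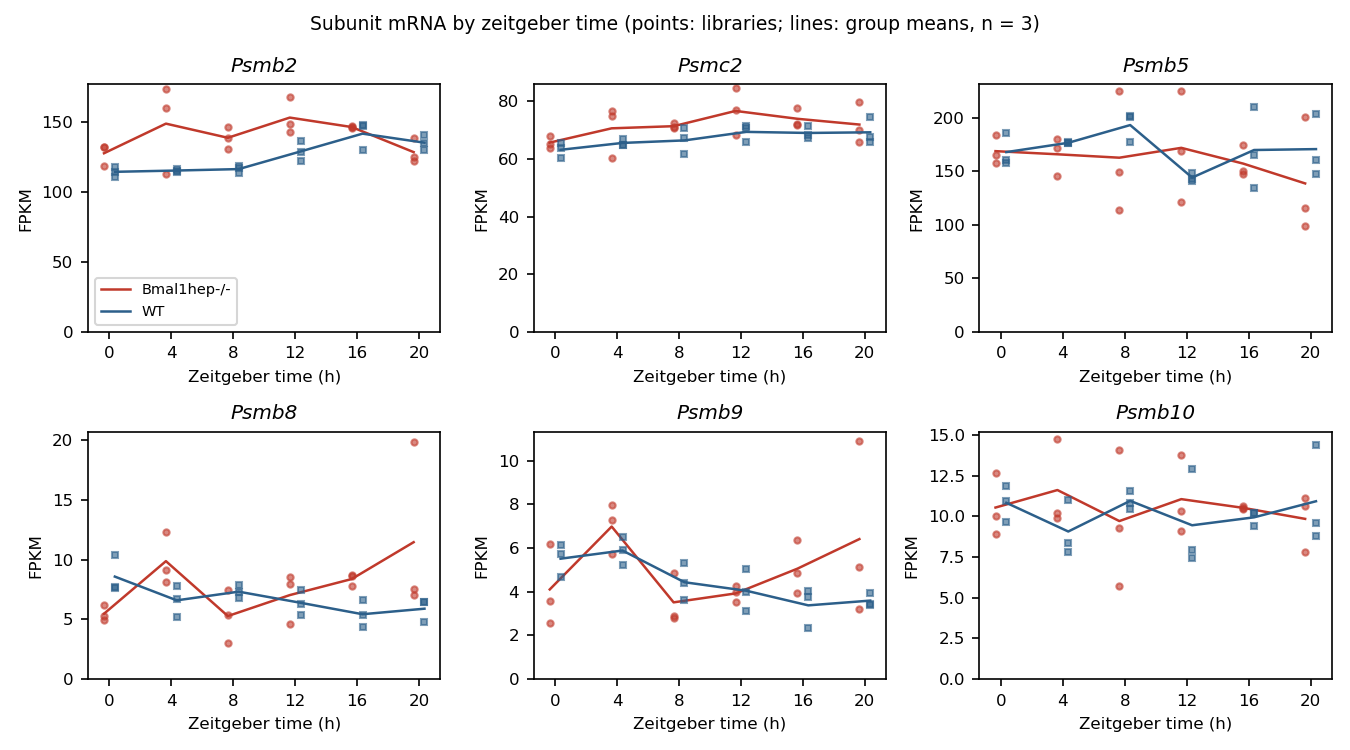
FPKM of 6 subunits by zeitgeber time, with 1 point per library and lines through the means of 3 replicates, in Bmal1hep-/- and WT muscle. Psmb2 lies higher in WT libraries at ZT12, ZT16 and ZT20 than at the earlier times, and Psmb8 and Psmb9 reach their highest value in 1 Bmal1hep-/- library at ZT20.

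Genes around the proteasome were read from 7 lists. Of their tested genes, 0 passed the genotype test by limma, against 0% of all genes. The proteasome activators and inhibitor (Psme1 to Psme4 and Psmf1) had 0 of 5 members called in any rhythm test, as had the 5 chaperones of core assembly, the 12 associated proteins and the 13 tested genes of antigen presentation and the interferon response. Of all genes, 5.47% were called in Bmal1hep-/- muscle, 6.03% in WT muscle and 12.4% in the mean, so a count of 0 in lists this short is near the background. Psmg2, an assembly chaperone of the core, averaged 24.9 ± 3.66 FPKM in Bmal1hep-/- and 22.5 ± 2.23 FPKM in WT muscle (difference 0.13 ± 0.06, adjusted p = 0.559). Pomp, which completes core assembly, averaged 139 ± 19.8 FPKM in Bmal1hep-/- and 129.9 ± 11.1 FPKM in WT muscle (adjusted p = 0.732). Of the antigen presentation and interferon list, 12 of 13 tested genes lay above 0, with a median of 0.12, against 48.4% of all genes. Isg15, with the smallest genotype p of this list, averaged 2.91 ± 1.13 FPKM in Bmal1hep-/- and 2.15 ± 0.844 FPKM in WT muscle (difference 0.31 ± 0.12, limma, adjusted p = 0.444). B2m, the light chain of MHC class I, averaged 179 ± 45.4 FPKM in Bmal1hep-/- and 156 ± 15.5 FPKM in WT muscle (difference 0.18 ± 0.07, adjusted p = 0.468). Tap1 averaged 2.87 ± 1.18 FPKM in Bmal1hep-/- and 2.24 ± 0.745 FPKM in WT muscle (difference 0.24 ± 0.11, adjusted p = 0.558). The 3 libraries with lymphocyte markers are all Bmal1hep-/- libraries, and the part of those cells in this direction was not tested.

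Of the genes that regulate the proteasome or tag its substrates, Nfe2l2 and the muscle ligase Trim63 were called rhythmic in both genotypes. Among 8 regulators of proteasome genes and activity, 2 were called in Bmal1hep-/- (against 5.47% of all genes) and 1 in WT muscle (against 6.03%), by limma. Nfe2l2, a stress-responsive factor related to Nfe2l1, had an amplitude of 0.19 ± 0.04 with a peak at 13.9 h in Bmal1hep-/- (adjusted p = 0.0114) and of 0.25 ± 0.04 with a peak at 11.5 h in WT muscle (adjusted p = 0.000486). Its partner Mafg was the other gene called in Bmal1hep-/- muscle (0.19 ± 0.05, adjusted p = 0.0442). Nfe2l1 itself averaged 182 ± 23.3 FPKM in Bmal1hep-/- and 202 ± 19.8 FPKM in WT muscle, a difference of -0.15 ± 0.05 that did not pass (limma, adjusted p = 0.37), and it was not called rhythmic. Of 9 muscle ubiquitin ligases, 2 were called in Bmal1hep-/- (against the same 5.47%) and 1 in WT muscle (against 6.03%). In the mean of both genotypes, 4 of 8 regulators and 3 of 9 ligases were called, against 12.4% of all genes. Trim63 (MuRF1) averaged 128 ± 14.5 FPKM in Bmal1hep-/- and 141 ± 20.9 FPKM in WT muscle (difference -0.14 ± 0.05, limma, adjusted p = 0.333). Its amplitude was 0.19 ± 0.05 with a peak at 21.6 h in Bmal1hep-/- (adjusted p = 0.026) and 0.19 ± 0.05 with a peak at 23.2 h in WT muscle (adjusted p = 0.0309). Fbxo32 (atrogin-1) had 0.37 ± 0.10 with a peak at 23.6 h in Bmal1hep-/- (adjusted p = 0.0463) and 0.17 ± 0.10 in WT muscle (adjusted p = 0.6), and the difference between its 2 rhythms did not pass (limma, adjusted p = 0.913).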

How the data were processed

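Polyadenylated RNA of gastrocnemius muscle was sequenced, per the labels' protocols, and the authors deposited 1 table of FPKM for 36 libraries; groups and replicate numbers were taken from the labels. FastQC 0.11.8, STAR and the builds mm10 and GRCm39 are named in the submitters' processing notes, while neither the tool behind the FPKM nor the use of strand in counting is stated there. Read counts were not used here, so depth is known only in relative terms, and the number of replicates limits the precision.

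FPKM as the authors deposited them were taken as log2(FPKM + 1), which understates the change of low genes, and genes whose mean reached 1 FPKM were fitted. limma 3.58.1 in R 4.3.3 (empirical Bayes with trend and robust settings) was fitted to all 12 groups, with 24 residual degrees of freedom, and a cosine of 24 h with 30. Adjustment was Benjamini-Hochberg across the 10837 genes, with a threshold of 0.05. The code was tested on simulated data. Python 3.11.15, numpy 2.4.6, pandas 2.3.3, scipy 1.17.1 and matplotlib 3.10.9 were used for the rest. Transcript lengths came from GENCODE M21, which gave one for 96.6% of tested genes.

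Members, lists, alternatives and markers were chosen with earlier results of these data known. Named with values in every library were the 6 catalytic subunits, members called in any test, and the 2 members of smallest p in each genotype, interaction and rhythm test; of other lists, up to 4 genes of smallest p. Alternatives were a pseudocount of 0.1, no filter, a mean of at least 5 FPKM, median-of-ratios and quantile scaling, a replicate block, array weights, removal of the length trend, 6 libraries that stood apart left out together, each library left out in turn, each genotype fitted alone and a minimum amplitude of 0.25. Leaving out the 3 libraries with lymphocyte markers was added after seeing the data. The rhythm results of 1 pathway list are not reported here.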

Additional observations from a re-analysis of the deposited data

How the results depend on the processing

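Pseudocount, median-of-ratios scaling and a filter at 5 FPKM left the count of members called the same in every test. Array weights, which give libraries unequal weight, moved the counts most: 2 members were called over all times (Psma7 and Psmb2), 1 at ZT4, 11 at ZT8, 13 at ZT12, 12 for the interaction, 32 for time in Bmal1hep-/-, 1 for time in WT, and 1, 2 and 3 for rhythm in Bmal1hep-/-, in WT and in the mean. With these weights 2098 of all genes were called at ZT8 and 7513 for time in Bmal1hep-/-, and the median of the members at ZT8 was -0.10; the estimation of the weights stopped before it converged, and the cause was not tested. Without the 3 libraries with lymphocyte markers, 1 member was called over all times, 1 at ZT4, 1 for time in WT and 0 for rhythm in the mean. Without the 6 libraries that stood apart, 1 was called at ZT4, 1 for time in WT, 1 for rhythm in Bmal1hep-/- and 0 in the mean, and the ZT12 median was 0.059. Quantile scaling gave medians of 0.0465 at ZT12 and 0.0132 at ZT20, and 0 rhythm calls in WT, while the 1 call in the mean was Psmd4, not Psmb2. With the length trend removed, these medians were 0.0246 and 0.028, with 0 rhythm calls in WT and 0 in the mean. With no filter, 0 were called in the mean. With each genotype fitted alone, 2 were called in WT (Psmb2 and Psmb9), and with an amplitude of at least 0.25, 0.

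The sign turned for Psmb7 under quantile scaling (0.00685) and without the lymphocyte-marker libraries (0.0177), and without the 6 libraries for Psmb8 (-0.0275), Psmb9 (-0.0293) and Psmb10 (-0.0327). With 1 library left out, Psmb7 ranged from -0.0317 to 0.00977 and Psmb10 from -0.0113 to 0.0855. In these fits the count of members called ranged from 0 to 1 over all times, at ZT4 and at ZT20, for time in Bmal1hep-/- and in WT, and for rhythm in Bmal1hep-/-, in WT and in the mean. Without Bmal1hep-/- ZT4 replicate 1 the calls were Psmb2 over all times, at ZT4 and for time in both genotypes, and without Bmal1hep-/- ZT20 replicate 1 they were Psmc1 at ZT20 and for time in Bmal1hep-/-. The ZT12 median ranged from 0.059 to 0.26.

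The replicate block changed no member's call: 0 were called over all times, with a median of 0.04, and 1 for rhythm in WT. Between the genotypes at the same time, 3 of 18 same-numbered pairs correlated above 0.1, from -0.23 to 0.18. Of 18 Bmal1hep-/- libraries, 6 correlated best with the WT library of their own number. These pairs do not show whether libraries of the same number share a batch across times, which was not tested.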
